A study of Mus musculus with 15 samples.

Results

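The RNAs described here are the annotated noncoding RNAs of mouse small-intestinal crypts that a 2-colour array could measure. They were chosen as the probes whose accession begins with NR_, the RefSeq prefix for noncoding transcripts, and whose crypt signal was well above background on 4 or more of the 5 arrays in 1 or more groups. Of 771 such probes on the array, 491 passed, from 415 accessions, out of 28488 probes of any kind that passed among 39429. The other 280 noncoding probes were not tested. Of the 491, 322 were above background on all 15 arrays and 28 passed through 1 group alone, 2 of them past the test below in N1N2 against control crypts and 1 in N1N2 plus Lrp6 against N1N2 crypts. At the limit of the rule, 30 probes reached 4 arrays in their best group and 52 reached 3, just short of it. RefSeq now types 263 of the 491 as long noncoding RNA (lncRNA), 147 as transcribed pseudogenes and 12 as protein coding, while 52 carry accessions that matched no symbol in the RefSeq table of assembly GRCm38.p6.

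Crypts came from mice 6 to 8 weeks old, 24 h after treatment, in groups of 5 arrays each. The N1N2 plus Lrp6 group received blocking antibodies against Notch1 and Notch2 plus an anti-Lrp6 antibody at 30 mg/kg. The N1N2 group received the Notch1 and Notch2 antibodies alone, and the control group a control IgG antibody, although the series' design text calls the control untreated. The Notch antibody dose is labelled 1 mg/mL, which is a concentration. Strain and sex are not given in the sources used here, nor whether an array holds 1 animal or a pool; the design text calls the arrays biological replicates. Red (Cy5) crypt RNA was hybridised against a green (Cy3) universal mouse reference, so every level below is log2 of crypt over reference, and every change is a difference of 2 such levels. All 11 measured markers of crypt epithelium were above background on all arrays of every group.

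Notch receptors, once cleaved, act in the nucleus through the DNA-binding protein RBPJ, and in the crypt they hold back the secretory fate of goblet and enteroendocrine cells. Lrp6 is a co-receptor for Wnt ligands, whose signal reaches TCF/LEF factors and keeps crypt stem and progenitor cells dividing. Noncoding RNAs of the kinds on this array coat or silence chromosomes (Xist, Airn), scaffold nuclear bodies (Neat1), carry small nucleolar RNAs in their introns (the Snhg genes) or form the core of RNA enzymes (Rmrp, Rpph1, Terc).

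The libraries differed in depth of signal. Noncoding probes were above background on 44.5% to 65.1% of spots on the N1N2 plus Lrp6 arrays, 59.9% to 70.3% on the N1N2 arrays and 61.2% to 73.7% on the control arrays. Replicate 1 of N1N2 plus Lrp6 had the lowest value of its group in 38.1% of 485 members. The other groups also had such an array, control replicate 3 at 31.4% of 490 members and N1N2 replicate 1 at 29.9% of 489. The N1N2 plus Lrp6 arrays lay on 2 slides that held no other group, so slide and group cannot be told apart in their comparisons, whereas 1 slide held 2 N1N2 and 2 control arrays. Lung epithelial genes, which crypts lack, averaged 1.01 to 2.40 (log2 over reference, 5 genes) on the N1N2 plus Lrp6 arrays, against 0.04 to 0.13 on the N1N2 arrays and 0.01 to 0.63 on the control arrays. Sftpa1 was above background on all 5 N1N2 plus Lrp6 arrays and on none of the N1N2 or control arrays. The part of the lung signal in the results below was not tested.

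Notch1 and Notch2 blockade moved a small set of these RNAs. Between N1N2 and control crypts, 28 noncoding probes rose and 13 fell (limma, Benjamini-Hochberg adjusted p under 0.05), or 8.35% of 491. Of all 28488 probes, 11.4% passed the same test, 6.2% higher and 5.23% lower, so the noncoding RNAs stood slightly below the array as a whole. Their median log2 change was 0.02, against -0.01 for all probes. With arrays centred on their median in place of loess, the noncoding calls were 11 higher and 10 lower. With slide as a block, which rests on the 2 N1N2 and 2 control arrays of the shared slide, Gm14207 and a Pvt1 probe were the 2 that still passed. All 41 noncoding probes called kept their sign under that block, at a median size of 0.54 against 0.59 without it.

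Noncoding RNAs also moved when the Lrp6 antibody was added. Between N1N2 plus Lrp6 and N1N2 crypts, 30 noncoding probes rose and 32 fell, or 12.6% of 491. The background was 16.5% of all probes, 9.67% higher and 6.87% lower. The noncoding median was -0.01 and that of all probes 0. Median centring gave 32 higher and 17 lower. Both comparisons use the same N1N2 arrays, so an RNA that is high or low on those 5 arrays moves in opposite directions in the 2 comparisons by construction, and the changes are given side by side without an overlap count. Without the 4 N1N2 plus Lrp6 arrays of one slide, 1 noncoding probe rose (Tyms-ps) and 2 fell (Rn4.5s and Gm14207). Stromal and muscle markers averaged -4.34 to -3.55 on the N1N2 plus Lrp6 arrays and -3.48 to -3.13 on the N1N2 arrays, with 6 of 14 lower. With their mean as a covariate, 2 noncoding probes rose (Tyms-ps and 2010204K13Rik) and 1 fell (Airn), and all 62 kept their sign at a median size of 0.35, against 0.46 without the covariate. Without the 4 arrays, 61 of 62 kept their sign, at a median size of 0.32.

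Few of these changes were large. At least 2-fold, 4 noncoding probes rose in N1N2 against control crypts, and 1 rose and 2 fell in N1N2 plus Lrp6 against N1N2 crypts. The share of all probes past this cut was not computed, so these counts do not set noncoding RNAs apart from the array. By type, lncRNA probes passed in 8.75% and 10.3% of cases in these 2 comparisons, and transcribed pseudogene probes in 8.84% and 17%. The shares of all probes were 11.4% and 16.5%, with 6.2% and 9.67% higher and 5.23% and 6.87% lower. Of 263 lncRNA probes, 17 rose and 6 fell in N1N2 against control crypts, and 7 rose and 20 fell in N1N2 plus Lrp6 against N1N2 crypts. Of 147 transcribed pseudogene probes, 6 rose and 7 fell in the first comparison and 17 rose and 8 fell in the second. The difference between types was not tested.

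**Figure D1:**
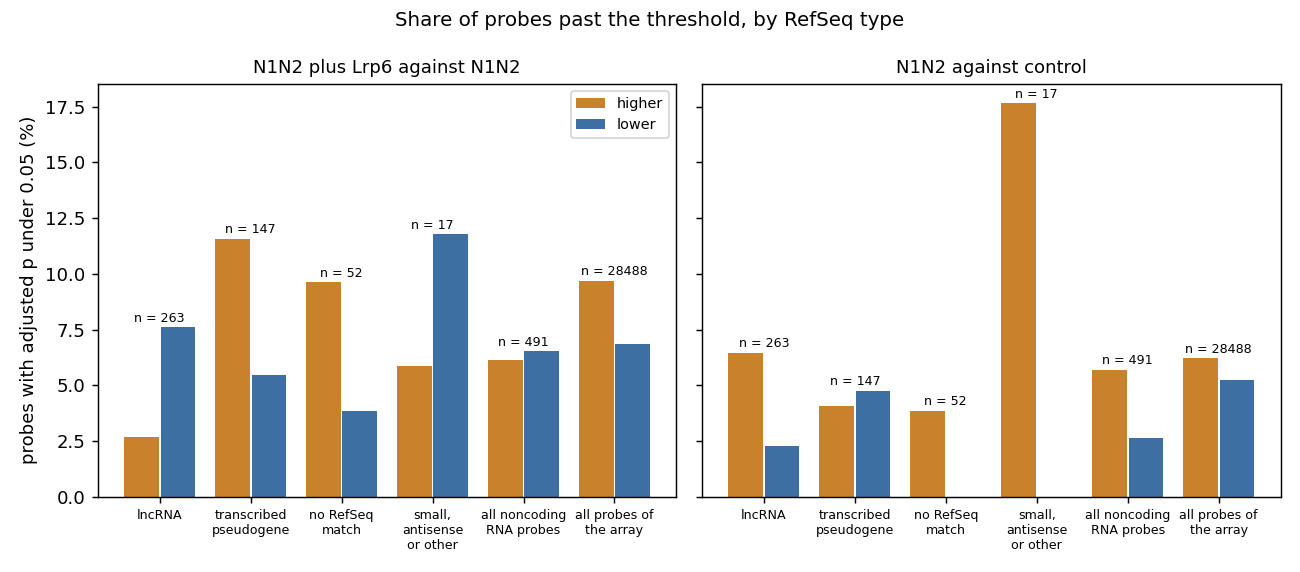
Percent of probes with adjusted p under 0.05, higher (orange) or lower (blue), by RefSeq type, for N1N2 plus Lrp6 against N1N2 (left) and N1N2 against control (right); n is the number of probes of each type. In the left panel the lncRNA bar is taller for lower (20 of 263) and the pseudogene bar for higher (17 of 147). All probes there were 6.87% lower and 9.67% higher. The noncoding probes together (12.6% and 8.35% called) stand below all probes (16.5% and 11.4%).

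Gm14207, a lncRNA, had the smallest adjusted p of all noncoding probes in N1N2 against control crypts. RefSeq places its start inside the gene for the Notch ligand Dll4, 413 bases from the Dll4 start and on the other strand, so that the 2 genes read past each other's starts. The windows around these starts (250 bases before to 50 after, RefSeq, GRCm38.p6) are shown because Airn and Gm14207 had the largest rises after Notch blockade and Dll4 overlaps Gm14207, and capitals mark CAGCTG, an E-box form bound by some basic helix-loop-helix factors.
Gm14207, chr2:119326148-119326447, minus strand: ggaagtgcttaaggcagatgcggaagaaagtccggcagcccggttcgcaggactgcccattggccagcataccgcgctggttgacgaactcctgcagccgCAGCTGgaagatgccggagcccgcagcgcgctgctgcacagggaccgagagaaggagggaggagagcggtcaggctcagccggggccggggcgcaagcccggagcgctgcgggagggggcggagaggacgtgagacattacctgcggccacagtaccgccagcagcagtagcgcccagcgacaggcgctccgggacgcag
Dll4, chr2:119325534-119325833, plus strand: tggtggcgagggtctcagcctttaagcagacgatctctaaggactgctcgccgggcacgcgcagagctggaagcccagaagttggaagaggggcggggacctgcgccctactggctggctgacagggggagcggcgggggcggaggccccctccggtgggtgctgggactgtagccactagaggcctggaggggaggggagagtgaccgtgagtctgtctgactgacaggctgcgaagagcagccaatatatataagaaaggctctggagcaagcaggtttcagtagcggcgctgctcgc
Airn, chr17:12741061-12741360, plus strand: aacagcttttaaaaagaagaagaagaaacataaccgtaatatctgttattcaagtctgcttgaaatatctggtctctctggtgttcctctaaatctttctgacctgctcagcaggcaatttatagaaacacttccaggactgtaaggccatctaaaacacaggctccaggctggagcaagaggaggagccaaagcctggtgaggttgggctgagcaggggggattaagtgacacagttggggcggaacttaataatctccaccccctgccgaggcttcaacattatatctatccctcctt
Both strands of each window were searched for TGGGAA, the core that RBPJ binds, for CTTTGA, a TCF/LEF core, and for CAGCTG. No window held TGGGAA or CTTTGA, and the Gm14207 window held 1 CAGCTG, at position -150 from the start. Among 32851 mouse promoter windows of the same length, 25.6% hold TGGGAA, 16% CTTTGA and 16.3% CAGCTG. A match describes the letters in the window and does not show a bound site.

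Gm14207 read 3.84, 3.71, 3.48, 3.56 and 3.02 on the N1N2 plus Lrp6 arrays, 3.58, 3.94, 4.00, 3.83 and 4.08 on the N1N2 arrays, and 2.36, 2.53, 2.32, 2.62 and 2.56 on the control arrays. Every array of both antibody groups lay above every control array. The log2 change was 1.41 ± 0.13 (SE) in N1N2 against control crypts, 2.65-fold (limma, adjusted p = 9.1e-06). Adding the Lrp6 antibody gave -0.36 ± 0.13 against N1N2 crypts (adjusted p = 0.08). Blocking on slide put the first change at 1.17 (adjusted p = 0.0092), while scaling arrays to equal spread gave 0.58 (adjusted p = 0.47) and the scanner's own log ratios 1.01 (adjusted p = 0.083).

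Dll4 encodes a ligand that cells present to Notch receptors on their neighbours. It read 1.62, 1.21, 2.00, 1.46 and 1.80 on the N1N2 plus Lrp6 arrays, 2.13, 2.48, 3.15, 2.47 and 2.6 on the N1N2 arrays, and 1.11, 0.99, 1.52, 1.15 and 1.16 on the control arrays. All N1N2 arrays lay above all others. Dll4 rose by 1.38 in N1N2 against control crypts (adjusted p = 0.00014) and changed by -0.95 in N1N2 plus Lrp6 against N1N2 crypts (adjusted p = 0.0026). In N1N2 plus Lrp6 against control crypts the change of Dll4 was 0.43 (adjusted p = 0.32), and with slide as a block the first change was 1.15 (adjusted p = 0.079). The second change of Dll4 was -0.35 with the scanner's own log ratios (adjusted p = 0.36) and lay between -1.07 and -0.35 over 27 alternatives, 6 of which ended the call. Goblet markers, of cells whose fate Notch blockade favours, rose in 6 of 10 genes in N1N2 against control crypts and fell in 5 of 10 in N1N2 plus Lrp6 against N1N2 crypts, and their part in these changes was not tested. In bulk crypts, more cells of a type and more RNA per cell cannot be told apart.

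Among the 7 measured RNAs on a list of imprinted RNAs, Airn rose after Notch blockade and the other 6 did not pass. That is 14.3% of the 7, close to the 11.4% of all probes that passed. Airn is made from the paternal chromosome, runs antisense to the growth-factor receptor gene Igf2r and silences genes of that cluster in cis. Its brightest probe read -0.25, -0.10, -0.34, -0.71 and -0.42 on the N1N2 plus Lrp6 arrays, 0.87, 1.51, 0.84, 1.83 and 0.46 on the N1N2 arrays, and -0.58, -0.65, -0.45, -0.54 and -0.66 on the control arrays. The N1N2 arrays did not overlap with either other group. Airn rose by 1.68 ± 0.20 in N1N2 against control crypts, 3.2-fold (adjusted p = 8.5e-05), and changed by -1.47 ± 0.20 in N1N2 plus Lrp6 against N1N2 crypts (adjusted p = 0.00055). Its first change was 1.79 when slide was a block (adjusted p = 0.068), and without the 4 N1N2 plus Lrp6 arrays of one slide the second was -1.52 (adjusted p = 0.08).

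A second Airn probe was above background on 4 of 5 N1N2 arrays and on no array of the N1N2 plus Lrp6 or control groups. It passed the filter through N1N2 alone, so its direction was set by the filter and it is given with no test. It read -0.19, -0.33, -0.01, -0.31 and -0.41 on the N1N2 plus Lrp6 arrays, -0.08, 0.33, 0.26, 0.45 and 0.07 on the N1N2 arrays, and -0.15, -0.16, -0.27, -0.26 and -0.15 on the control arrays. Igf2r, which Airn silences on the paternal chromosome, itself rose by 0.55 in N1N2 against control crypts (adjusted p = 0.016) and changed by -0.64 in N1N2 plus Lrp6 against N1N2 crypts (adjusted p = 0.0054). Neither Igf2r call held throughout, since the first was 0.06 with arrays scaled to equal spread (adjusted p = 0.91), 0.35 with median centring (adjusted p = 0.18) and 0.60 with slide as a block (adjusted p = 0.35). The second was -0.55 without the 4 N1N2 plus Lrp6 arrays of one slide (adjusted p = 0.21), -0.34 with the stromal and muscle covariate (adjusted p = 0.23), -0.44 with median centring (adjusted p = 0.073) and -0.49 with equal spread (adjusted p = 0.4).

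The rest of the imprinted list gave no call. Meg3, a maternally expressed lncRNA, varied most between controls, with 0.49, 1.52, -0.06, 0.51 and 1.86 on the control arrays against 0.03 to 0.36 on the N1N2 arrays. Its change in N1N2 against control crypts was -0.62 ± 0.28 (adjusted p = 0.17). Mirg, a microRNA host of the same locus, had a change of -0.35 (adjusted p = 0.094) and Peg13 one of -0.26 (adjusted p = 0.052). Kcnq1ot1, Peg3os and Zim3 lay between -0.11 and 0.26, with adjusted p from 0.089 to 0.7.

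Xist and Malat1 rose after Notch blockade among the 7 nuclear and X inactivation RNAs, and Xist, Malat1 and Norad fell when the Lrp6 antibody was added. These calls were 28.6% and 42.9% of the 7, beside 11.4% and 16.5% of all probes, a difference that was not tested. All 7 had changes above 0 in N1N2 against control crypts (median 0.11) and below 0 in N1N2 plus Lrp6 against N1N2 crypts (median -0.44). Xist, which coats and silences 1 X chromosome of female cells, read -0.05, 0.03, 0.19, -0.11 and 0.28 on the N1N2 plus Lrp6 arrays, 0.40, 1.29, 0.90, 1.49 and 0.88 on the N1N2 arrays, and 0.12, 0.02, 0.17, 0.27 and 0.34 on the control arrays. The N1N2 arrays lay above all others, spread over more than 1 log2 unit. Its change was 0.81 ± 0.16 in N1N2 against control crypts (adjusted p = 0.0045) and -0.92 ± 0.16 in N1N2 plus Lrp6 against N1N2 crypts (adjusted p = 0.0018). Blocking on slide put the first at 0.54 (adjusted p = 0.42), and without the 4 arrays of one slide the second was -0.71 (adjusted p = 0.25). A second Xist probe changed by 0.33 (adjusted p = 0.037) and -0.30 (adjusted p = 0.042) in the same comparisons.

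Malat1 is an abundant RNA of nuclear speckles. Its probe read -4.05, -3.19, -3.45, -3.53 and -3.06 on the N1N2 plus Lrp6 arrays, -2.80, -2.52, -2.74, -2.43 and -2.88 on the N1N2 arrays, and -3.40, -3.28, -3.50, -2.77 and -3.61 on the control arrays. Control replicate 4 lay among the N1N2 arrays, while the antibody groups did not overlap. Malat1 rose by 0.64 in N1N2 against control crypts (adjusted p = 0.032) and changed by -0.78 in N1N2 plus Lrp6 against N1N2 crypts (adjusted p = 0.0087). Leaving out any one of control replicates 1, 2, 3 and 5 or N1N2 replicates 2 and 4 ended the first call (adjusted p from 0.062 to 0.092), and scaling arrays to equal spread gave 1.44 (adjusted p = 0.1). The second change was -0.39 without the 4 N1N2 plus Lrp6 arrays of one slide (adjusted p = 0.5) and -0.61 with the stromal and muscle covariate (adjusted p = 0.22). It was -0.58 with median centring (adjusted p = 0.055) and -1.02 with equal spread (adjusted p = 0.28).

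Neat1, the scaffold of paraspeckles, read -0.97, 0.75, 0.42, 0.03 and 0.35 on the N1N2 plus Lrp6 arrays, 1.26, 0.82, 0.58, 1.26 and 0.34 on the N1N2 arrays, and 0.17, -0.10, -0.72, 0.59 and -0.14 on the control arrays. The groups overlapped, and its changes of 0.89 (adjusted p = 0.064) and -0.74 (adjusted p = 0.11) did not pass. Of 7 paraspeckle proteins, Sfpq fell by 0.60 (adjusted p = 0.0044) and Rbm14 by 0.38 (adjusted p = 0.0042) in N1N2 against control crypts. Sfpq rose by 0.42 and Rbm14 by 0.26 when the Lrp6 antibody was added (adjusted p = 0.021 and 0.024). These calls were 28.6% of the 7 each time, beside 11.4% and 16.5% of all probes, a difference that was not tested.

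Norad, a cytoplasmic RNA that binds Pumilio proteins, changed by -0.44 in N1N2 plus Lrp6 against N1N2 crypts (adjusted p = 0.031), with overlapping groups. Leaving out 1 of N1N2 replicates 2, 3 and 4 or N1N2 plus Lrp6 replicates 2 and 4 ended this call (adjusted p from 0.061 to 0.091), and it was -0.10 (adjusted p = 0.85) without the 4 arrays of one slide. Tug1 and Ftx lay within 0.10 of 0 in both comparisons. For Pvt1, a lncRNA beside the Myc gene, the brightest probe gave 0.11 and -0.18 and did not pass. A dimmer Pvt1 probe read -3.93, -3.56, -3.54, -3.84 and -3.93 on the N1N2 plus Lrp6 arrays, -2.97, -3.13, -3.57, -3.44 and -3.49 on the N1N2 arrays, and -3.90, -3.89, -3.90, -3.96 and -3.86 on the control arrays. This probe rose by 0.58 in N1N2 against control crypts (adjusted p = 0.0049) and by 0.86 with slide as a block (adjusted p = 0.025), and changed by -0.44 in N1N2 plus Lrp6 against N1N2 crypts (adjusted p = 0.016). It is named after its values were seen.

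**Figure D2:**
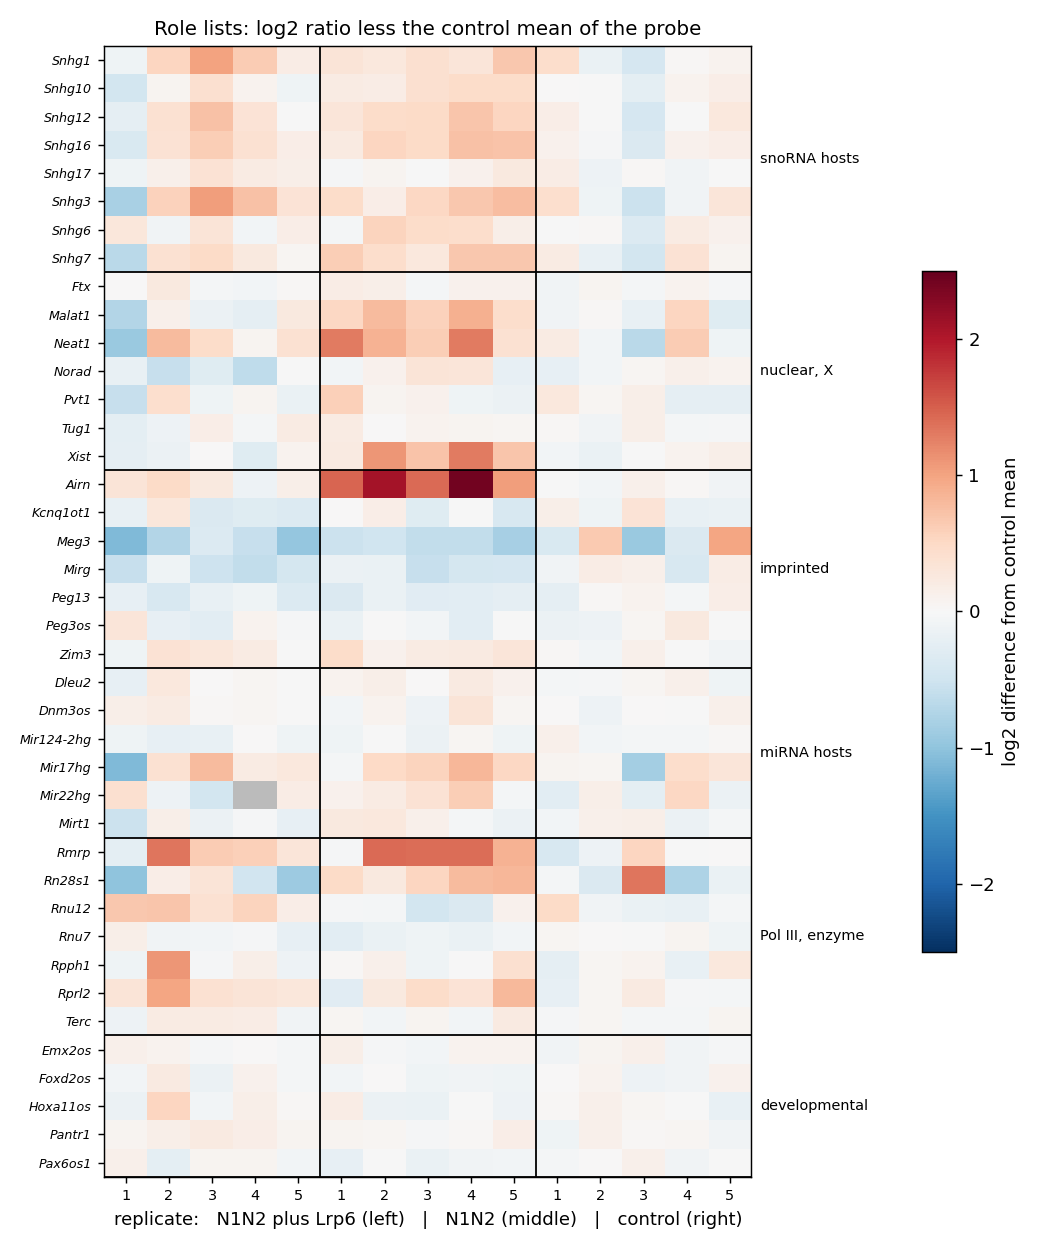
Log2 ratio of every measured RNA of the role lists (rows) on each array (columns), less the control mean of that probe; red is higher and blue lower than the control mean, and grey marks a missing value. Airn and Xist are redder on the 5 N1N2 arrays than elsewhere. In most snoRNA hosts, replicate 1 is the lowest array of the N1N2 plus Lrp6 group, and control replicate 3 is blue as well.

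snoRNA host genes rose in 1 of 8 cases after Notch blockade, or 12.5%, close to the 11.4% of all probes that passed. Their introns carry small nucleolar RNAs that guide modification of ribosomal RNA. All 8 had changes above 0 in N1N2 against control crypts, with a median of 0.44 and a range from 0.08 to 0.54, but only Snhg16 passed. Snhg16 read -1.43, -0.68, -0.42, -0.66 and -0.87 on the N1N2 plus Lrp6 arrays, -0.81, -0.50, -0.56, -0.30 and -0.32 on the N1N2 arrays, and -0.93, -1.06, -1.41, -0.93 and -0.87 on the control arrays. The N1N2 arrays lay above the control arrays by a narrow margin, and its change was 0.54 (adjusted p = 0.042), or 0.25 with slide as a block (adjusted p = 0.72). Leaving out any control array, or any N1N2 array but replicate 1, ended the call (adjusted p from 0.056 to 0.11). None of the 8 passed in N1N2 plus Lrp6 against N1N2 crypts, at a median of -0.22.

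Proteins that package small nucleolar RNAs were also measured. Of 8, the box C/D methyltransferase Fbl fell by 0.65 (adjusted p = 0.012) and the pseudouridine synthase Dkc1 by 0.61 (adjusted p = 0.0016) in N1N2 against control crypts. With the Lrp6 antibody added, Fbl rose by 0.98 against N1N2 crypts, Nhp2 by 0.78, Dkc1 by 0.67 and Snu13 by 0.58 (adjusted p = 0.00089, 0.00085, 0.001 and 0.015). These calls were 25% and 50% of the 8, beside 11.4% and 16.5% of all probes, a difference that was not tested. Cycling-cell genes fell in 9 of 11 cases in N1N2 against control crypts and rose in 10 of 11 in N1N2 plus Lrp6 against N1N2 crypts. Their part in the protein changes was not tested.

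Snord123, a small nucleolar RNA gene, rose beside a coding neighbour that fell. It read 0.23, 0.10, 0.41, 0.26 and -0.15 on the N1N2 plus Lrp6 arrays, 0.28, 0.49, 0.61, 0.60 and 0.96 on the N1N2 arrays, and 0.04, -0.13, -0.43, -0.15 and -0.05 on the control arrays. All N1N2 arrays lay above all control arrays. Snord123 rose by 0.73 in N1N2 against control crypts (adjusted p = 0.0021), or 0.48 with slide as a block (adjusted p = 0.3) and 0.54 with median centring (adjusted p = 0.12), and changed by -0.42 in N1N2 plus Lrp6 against N1N2 crypts (adjusted p = 0.036). Its neighbour Sema5a, a semaphorin of cell guidance, went the opposite way, at -1.39 (adjusted p = 3e-06) and 0.95 (adjusted p = 4e-04), and at -1.63 with slide as a block (adjusted p = 0.006). The second Snord123 call ended when any 1 of N1N2 replicates 2 to 5 or N1N2 plus Lrp6 replicates 1, 2, 4 and 5 was left out (adjusted p from 0.054 to 0.083).

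Of 7 measured RNAs on the list of RNA enzymes and spliceosomal RNAs, 1 passed in N1N2 against control crypts. In N1N2 plus Lrp6 against N1N2 crypts 1 passed as well. That is 14.3% each time, beside 11.4% and 16.5% of all probes. Rmrp, the RNA of the RNase MRP that cuts ribosomal RNA precursors, read 1.04, 2.63, 1.93, 1.89 and 1.59 on the N1N2 plus Lrp6 arrays, 1.27, 2.70, 2.68, 2.68 and 2.17 on the N1N2 arrays, and 0.89, 1.17, 1.82, 1.28 and 1.30 on the control arrays. N1N2 replicate 1 lay among the controls, and the rise was 1.01 ± 0.30 (adjusted p = 0.039). Leaving out any 1 of control replicates 1, 2, 4 and 5 or N1N2 replicates 2 to 5 ended that call (adjusted p from 0.058 to 0.1). Rnu12, the U12 RNA of the minor spliceosome, read -0.95, -0.94, -1.24, -1.07 and -1.47 on the N1N2 plus Lrp6 arrays, -1.66, -1.67, -2.09, -2.0 and -1.53 on the N1N2 arrays, and -1.15, -1.72, -1.79, -1.81 and -1.68 on the control arrays. The antibody groups did not overlap, and Rnu12 rose by 0.66 in N1N2 plus Lrp6 against N1N2 crypts (adjusted p = 0.0074). Rpph1, Rprl2, Rnu7, Terc and the ribosomal Rn28s1 did not pass in either comparison.

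Rn4.5s, a short rodent RNA that RefSeq types as ribosomal, had the largest change among the small RNAs. It read 1.57, 2.68, 2.19 and 1.54 on the 4 N1N2 plus Lrp6 arrays with a value, 3.51, 3.35, 2.64, 3.47 and 2.83 on the N1N2 arrays, and 2.16, 1.73, 2.35, 2.16 and 1.64 on the control arrays. Every N1N2 array lay above every control array, while N1N2 plus Lrp6 replicate 2 reached the lowest N1N2 array. The change was 1.15 in N1N2 against control crypts (adjusted p = 0.0065), or 1.53 with slide as a block (adjusted p = 0.13). The second change, N1N2 plus Lrp6 against N1N2, was -1.17 (adjusted p = 0.0064). The labels name an RNeasy column and Agilent's Quick Amp labelling, methods known to recover short or tail-less RNAs poorly, which limits the values of this class.

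**Figure D3:**
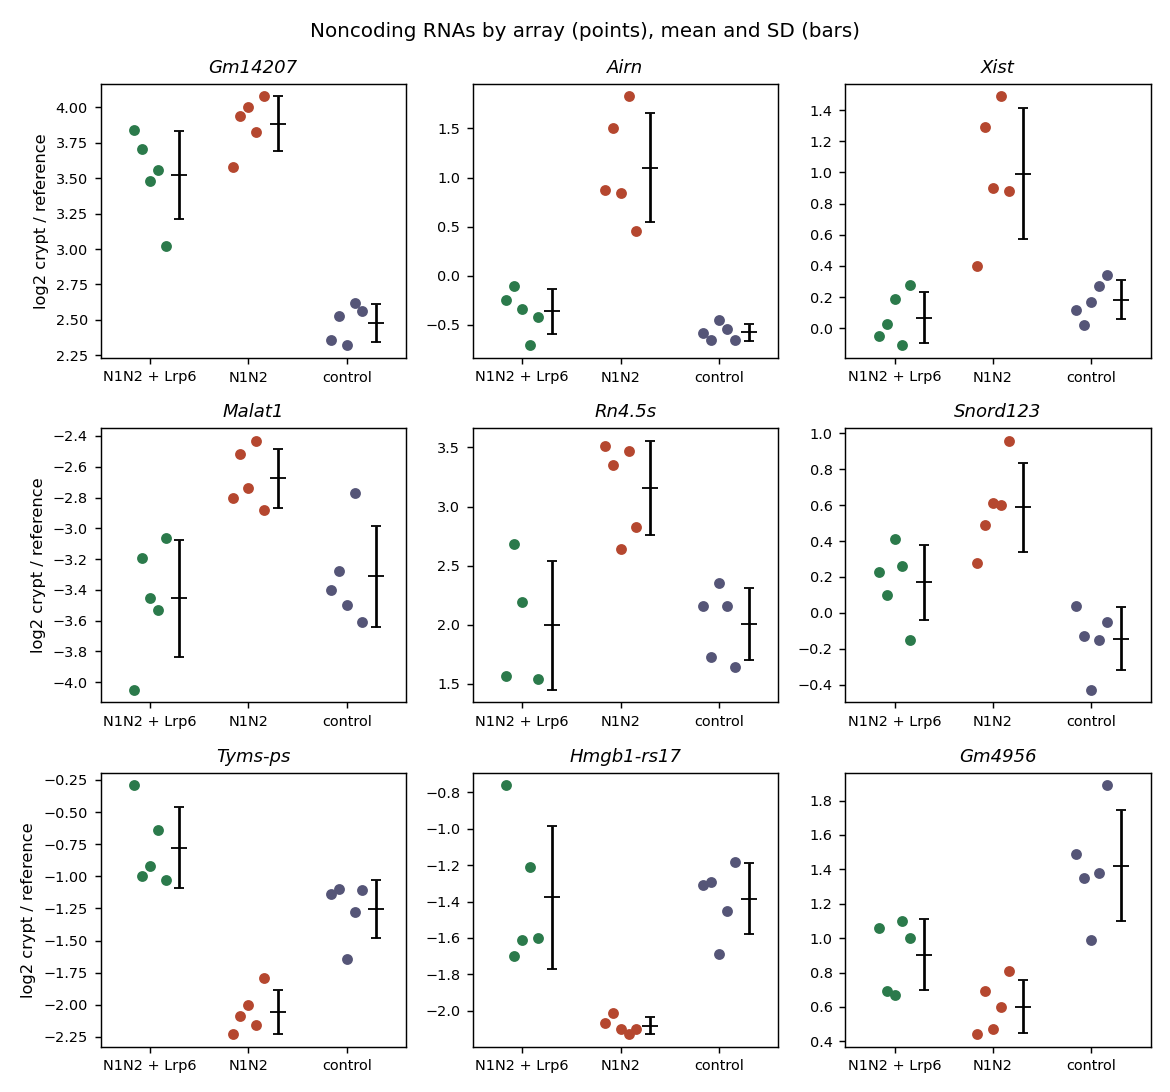
Log2 of crypt over reference (vertical axis) of 9 noncoding RNAs on each array, for N1N2 plus Lrp6 (left), N1N2 (middle) and control (right); points are arrays and bars are the mean and SD. Gm14207 is above every control array in both antibody groups, while Airn, Xist and Rn4.5s stand high in N1N2 and Tyms-ps and Hmgb1-rs17 stand low.

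Hosts of microRNAs and RNAs of developmental loci gave no call. None of 8 host genes passed in either comparison, at medians of 0.10 and -0.10. At unadjusted p under 0.05, 1 of the 8 passed in N1N2 against control crypts, beside 7515 of all 28488 probes. Mir17hg, the host of a cluster of growth-promoting microRNAs, read 0.16, 1.64, 2.05, 1.47 and 1.52 on the N1N2 plus Lrp6 arrays, 1.21, 1.76, 1.81, 2.08 and 1.78 on the N1N2 arrays, and 1.33, 1.30, 0.41, 1.69 and 1.56 on the control arrays. Its 3 groups overlapped widely, and N1N2 plus Lrp6 replicate 1 stood lowest. Of 9 microRNA processing proteins, Prkra, a partner of Dicer, rose by 0.33 in N1N2 plus Lrp6 against N1N2 crypts (adjusted p = 0.021) and none passed in N1N2 against control crypts. The Prkra call was 11.1% of the 9, beside 16.5% of all probes. The 5 developmental RNAs, among them Hoxa11os and Pax6os1, had changes of no more than 0.15.

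Of the 147 transcribed pseudogene probes, 8.84% passed in N1N2 against control crypts and 17% in N1N2 plus Lrp6 against N1N2 crypts, beside 11.4% and 16.5% of all probes. Tyms-ps is named for thymidylate synthase, the enzyme that makes thymidine for DNA synthesis. It read -0.29, -1.0, -0.92, -0.64 and -1.03 on the N1N2 plus Lrp6 arrays, -2.23, -2.09, -2.0, -2.16 and -1.79 on the N1N2 arrays, and -1.14, -1.10, -1.64, -1.28 and -1.11 on the control arrays. The 3 groups did not overlap, with N1N2 lowest. Its change was -0.80 ± 0.14 in N1N2 against control crypts (adjusted p = 0.0027), or -0.96 with slide as a block (adjusted p = 0.15). Tyms-ps rose by 1.28 ± 0.14 in N1N2 plus Lrp6 against N1N2 crypts (adjusted p = 0.00026), a call that held in every alternative run. The changes of the tested Tyms probe itself were 0.02 and 0.07, with adjusted p of 0.91 and 0.53.

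Hmgb1-rs17, related in sequence to the chromatin protein gene Hmgb1, read -0.76, -1.70, -1.61, -1.21 and -1.60 on the N1N2 plus Lrp6 arrays, -2.07, -2.01, -2.10, -2.13 and -2.10 on the N1N2 arrays, and -1.31, -1.29, -1.69, -1.45 and -1.18 on the control arrays. The N1N2 arrays lay within a narrow band below both other groups. Hmgb1-rs17 fell by 0.70 in N1N2 against control crypts (adjusted p = 0.0081), and Hmgb1 by 0.63 (adjusted p = 0.011). Both rose in N1N2 plus Lrp6 against N1N2 crypts, by 0.70 (adjusted p = 0.0058) and 0.65 (adjusted p = 0.0067). Whether each probe separates a pseudogene from its parent transcript was not tested. Among 13 pseudogenes with a tested namesake, this pair alone passed on both sides in N1N2 against control crypts.

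Gm4956 fell by 0.82 in N1N2 against control crypts (adjusted p = 0.0019), with 0.44 to 0.81 on the N1N2 arrays and 0.99 to 1.89 on the control arrays. Its neighbour Gsta3, a glutathione transferase, fell by 0.94 (adjusted p = 0.0052). In N1N2 plus Lrp6 against N1N2 crypts their changes were 0.30 and 0.52 and did not pass. Gm5176 fell by 0.61 (adjusted p = 0.0086) and rose by 0.72 (adjusted p = 0.0026) in the same 2 comparisons, and Gm5643 rose by 0.63 in the second alone (adjusted p = 0.015). Gm9199 fell by 0.62 in N1N2 against control crypts (adjusted p = 0.0038). Pisd-ps1 changed by -0.47 in N1N2 plus Lrp6 against N1N2 crypts (adjusted p = 0.048), against -0.42 for Pisd (adjusted p = 0.11), and leaving out any 1 N1N2 array or N1N2 plus Lrp6 replicate 1, 2 or 4 ended its call (adjusted p from 0.052 to 0.13). Median centring gave -0.08 for Pisd-ps1 (adjusted p = 0.85), and 19 of 27 alternatives ended the call. Cycling-cell genes fell and rose in the same comparisons, as given above, and their part in the pseudogene changes was not tested.

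RNAs uncharacterised by name, 286 of the 491 probes, passed in 8.04% of cases in N1N2 against control crypts and 13.6% in N1N2 plus Lrp6 against N1N2 crypts, beside the same 11.4% and 16.5% of all probes. 5033406O09Rik rose by 0.81 in N1N2 against control crypts (adjusted p = 0.0014) and changed by -0.50 in N1N2 plus Lrp6 against N1N2 crypts (adjusted p = 0.019, or 0.053 without N1N2 replicate 2). BC065397 read -1.10, -0.41, -0.24, -0.47 and -0.44 on the N1N2 plus Lrp6 arrays, -0.19, 0.61, 0.19, 0.59 and 0.46 on the N1N2 arrays, and -0.60, -0.45, -0.49, -0.19 and -0.30 on the control arrays. The lowest N1N2 and the highest control array both rounded to -0.19, and its changes were 0.74 (adjusted p = 0.011) and -0.86 (adjusted p = 0.0037). B130006D01Rik rose by 0.59 and Gm3414 by 0.57 in the first comparison (adjusted p = 0.0046 and 0.0038), and fell by 0.64 and 0.54 in the second (adjusted p = 0.0024 and 0.0044). An unmatched accession, NR_002840, rose by 0.63 in N1N2 against control crypts (adjusted p = 0.028), a call that ended without control replicate 2 or 3 or N1N2 replicate 4 or 5 (adjusted p from 0.058 to 0.077).

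Falls after Notch blockade among lncRNAs were fewer. 1700001L05Rik read 1.72, 0.74, 1.17, 1.05 and 0.90 on the N1N2 plus Lrp6 arrays, 0.32, 0.43, 0.48, 0.44 and 0.54 on the N1N2 arrays, and 1.04, 1.04, 0.82, 1.25 and 1.23 on the control arrays. The N1N2 arrays lay below all others, and the changes were -0.64 (adjusted p = 0.01) and 0.68 (adjusted p = 0.0057). 2010204K13Rik fell by 0.27 (adjusted p = 0.033) and rose by 0.53 (adjusted p = 0.00072), although scaling arrays to equal spread turned its first change to 0.20, and leaving out control replicate 1, 2 or 5 or N1N2 replicate 2 or 4 ended that call (adjusted p from 0.063 to 0.093). Zbtb11os1, antisense to the zinc-finger gene Zbtb11, fell by 0.40 (adjusted p = 0.019) and rose by 0.37 (adjusted p = 0.022), while Zbtb11 gave -0.06 and -0.15 and did not pass. Its first call ended without control replicate 5 (adjusted p = 0.059), and its second without N1N2 replicate 1, 2 or 4 or N1N2 plus Lrp6 replicate 1 or 4 (adjusted p from 0.05 to 0.064). NR_024069, unmatched, rose by 0.52 in N1N2 plus Lrp6 against N1N2 crypts (adjusted p = 0.003).

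**Figure D4:**
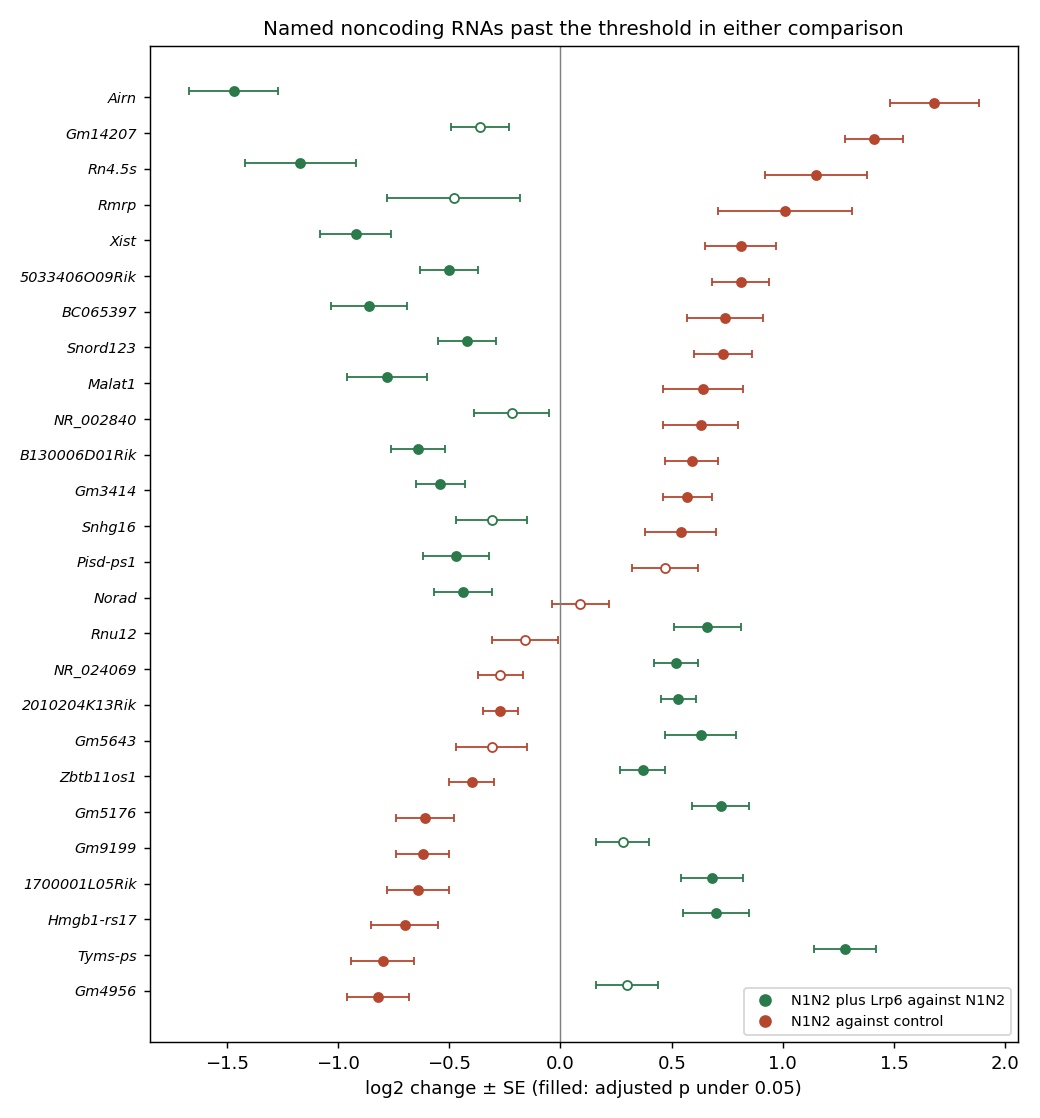
Log2 change ± SE (horizontal axis) of each named noncoding RNA past the threshold in either comparison (rows), for N1N2 plus Lrp6 against N1N2 (green) and N1N2 against control (red); filled points have adjusted p under 0.05. Airn has the largest change in each direction (-1.47 and 1.68), and Tyms-ps the largest rise with the Lrp6 antibody (1.28); the 2 comparisons share the N1N2 arrays.

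Some RNAs had several probes. Gm10845 was named after its values were seen, so it is an example and not a check. Its 3 probes had changes of 0.60, 0.82 and 0.75 in N1N2 against control crypts (adjusted p = 0.061, 0.014 and 0.012). In N1N2 plus Lrp6 against N1N2 crypts the 3 probes changed by -0.68, -0.91 and -0.79 (adjusted p = 0.028, 0.0059 and 0.007). Among 63 symbols with several probes, signs differed between probes for 19 in the first comparison and 20 in the second, and no symbol was called in both directions. With 8.35% and 12.6% of noncoding probes called, opposite calls had little room to arise.

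Coding neighbours were looked up for the RNAs named for their change. These RNAs were named for passing the test in a comparison, so their own calls follow from that choice. Of 17 with a tested neighbour, 14 passed in N1N2 against control crypts. Their neighbours passed in 4 cases, 3 in the same direction and 1, Sema5a, in the opposite one. In N1N2 plus Lrp6 against N1N2 crypts, 14 passed with 3 neighbours called and 2 pairs called on both sides, 1 alike and 1 opposite. Across the array, 11.4% and 16.5% of all probes passed in these comparisons. Whether neighbours move together was not tested. Of 20 antisense RNAs with a tested namesake, 1 passed in each comparison, while 1 and 2 of the namesakes did. None passed together with its namesake, which so few calls could hardly have shown.

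**Figure D5:**
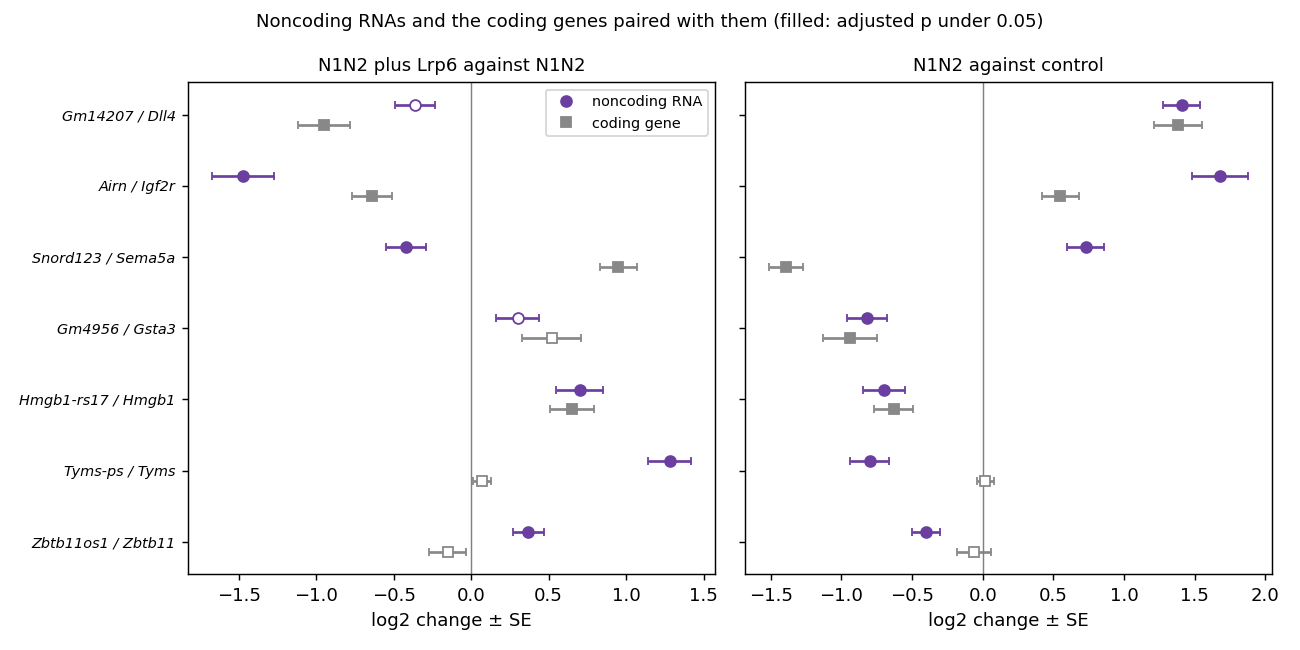
Log2 change ± SE (horizontal axis) of 7 noncoding RNAs (purple circles) and the coding genes paired with them (grey squares), for N1N2 plus Lrp6 against N1N2 (left) and N1N2 against control (right); filled symbols have adjusted p under 0.05. Gm14207 and Dll4 lie together on the right (1.41 and 1.38), and Snord123 and Sema5a lie on opposite sides of 0. The tested Tyms probe stays near 0 beside Tyms-ps, and whether it responds to Tyms RNA was not tested.

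Decay factors that degrade many spliced noncoding transcripts were also read. Of 9 nonsense-mediated decay factors, the helicase Upf1 rose by 0.41 (adjusted p = 0.0072) and its kinase Smg1 by 0.38 (adjusted p = 0.035) in N1N2 against control crypts. In N1N2 plus Lrp6 against N1N2 crypts, Smg1 fell by 0.44, Upf1 by 0.35 and Smg6 by 0.31 (adjusted p = 0.013, 0.012 and 0.017). Calls were 22.2% and 33.3% of the 9, beside 11.4% and 16.5% of all probes, a difference that was not tested. No protein gene listed for RNA packaging, paraspeckles, microRNA processing or decay was followed through the alternatives in processing.

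Set against control crypts, N1N2 plus Lrp6 crypts had 1 noncoding probe higher and 0 lower past the threshold (limma). Across the array, 0.358% of probes passed, 0.197% higher and 0.161% lower. At unadjusted p under 0.05, 51 of the 491 noncoding probes passed, beside 3642 of all 28488 probes. The RNA was Gm14207, which rose by 1.05 ± 0.13, 2.06-fold (adjusted p = 0.0035), with all 5 arrays above all controls. Its change was 0.54 (adjusted p = 1) without the 4 N1N2 plus Lrp6 arrays of one slide, 0.75 (adjusted p = 0.58) with the stromal and muscle mean as a covariate, 0.53 (adjusted p = 0.53) with arrays scaled to equal spread and 1.55 (adjusted p = 0.055) with the scanner's own log ratios. Stromal and muscle genes averaged -4.34 to -3.55 on the N1N2 plus Lrp6 arrays and -3.35 to -2.63 on the control arrays, with 3 of 14 genes lower and 1 of 14 not above background on any N1N2 plus Lrp6 array. The changes of Airn at 0.21 (adjusted p = 0.69), Xist at -0.11 (adjusted p = 0.8), Malat1 at -0.14 (adjusted p = 0.78) and Tyms-ps at 0.48 (adjusted p = 0.19) did not pass in the same comparison, which does not show that the groups were equal.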

How the data were processed

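Total RNA of 15 crypt preparations was labelled with Cy5 and hybridised against a Cy3 universal mouse reference, per the labels' protocols, and no dyes were swapped. Feature Extraction 11.0.1.1, per the file headers, wrote raw median intensity and local background intensity for both channels, flags, and a log10 ratio of red over green. A table of log2 values deposited by the authors was made with R 3.0.0 and limma 3.6.7 per the submitters' processing notes. Its columns correlated with the values computed here at r of at least 0.99998, with slopes of 0.999 to 1.003 and medians of 0.0144 to 0.0286, so it holds log2 of crypt over reference.

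In R 4.3.3 with limma 3.58.1, spots with outlier flags (401 to 761 per array, control spots included) were left out. This left 9 noncoding probes without a value on at least 1 array. Background was corrected with normexp (offset 50), ratios were normalized by loess within arrays with control spots at weight 0, and spots of a probe were averaged. All 15 arrays entered one lmFit and eBayes fit, with two-sided p adjusted by Benjamini-Hochberg over 28488 probes. The fit was tested on simulated log ratios, and the steps before it were not part of that test. P-values measure the spread between arrays, which may be partly technical. The number of arrays limits the precision. Names came from the RefSeq accessions. Text names the members of the role lists, the 8 largest non-overlapping changes per direction and comparison, and their coding neighbours and namesakes, using the brightest probe of each; some coding genes are not reported here and stand outside the counts of lists and neighbours. The members and lists were chosen with earlier results of these data known. Normalization, filters, blocks, covariates and left-out arrays were varied. Across groups, same-numbered arrays had deviations correlated at -0.43 to 0.62, over 0.1 in 4 of 15 pairs, so numbers do not pair them.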

Additional observations from a re-analysis of the deposited data

Results flagged for a closer look

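For 59 named RNAs in 3 groups each, the highest or lowest array was compared with its nearest neighbour, and in 6 of 177 groups it stood far from the other 4 arrays. Chance gives about 1 such array in 20 groups. Replicate 2 of N1N2 plus Lrp6 was the one in 4 cases. There the RNase P RNA Rpph1 read 1.46 with the next array at 0.51, and the related Rprl2 read 1.77 with the next at 1.17. Kcnq1ot1 read -2.03 there with the next at -2.49, and Gm9199 read 0.39 with the next at 0.85. BC065397 read -1.10 on replicate 1 of N1N2 plus Lrp6, with the next at -0.47. Rnu12 read -1.15 on control replicate 1, with the next at -1.68, and without that array its change in N1N2 plus Lrp6 against control crypts was 0.61 (limma, adjusted p = 0.049), against 0.49 (adjusted p = 0.18) with it.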

How the results depend on the processing

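In N1N2 against control crypts, 28 higher and 13 lower noncoding probes became 11 and 10 with median centring, 6 and 3 with arrays scaled to equal spread, 17 and 10 with the scanner's log ratios, and 30 and 7 with flagged spots kept or included in the normexp fit. With slide as a block they were 2 and 0. Without the block, 110 of 491 passed at unadjusted p under 0.05, beside 7515 of all 28488 probes. Slide as a random block gave 43 and 23, a fit of the 2 groups only 46 and 19, and array weights 75 and 38. With the stromal and muscle covariate, chosen after seeing the data, the counts were 42 and 25. Leaving out 1 array gave 12 to 27 higher and 7 to 16 lower, and the total fell by over 1.5 times without control replicate 2 (14 and 8) or 5 (15 and 7) and without N1N2 replicate 2 (16 and 9) or 4 (12 and 7).

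In N1N2 plus Lrp6 against N1N2 crypts, 30 higher and 32 lower became 32 and 17 with median centring, 2 and 3 with equal spread, 11 and 18 with flagged spots kept or included in the normexp fit, 58 and 74 with a random slide block, and 23 and 18 in a fit of the 2 groups only. Both alternatives chosen after seeing the data lowered them, to 1 and 2 without the 4 N1N2 plus Lrp6 arrays of one slide and to 2 and 1 with the stromal and muscle covariate. Leaving out 1 array gave 15 to 36 higher and 18 to 42 lower, with the total down by over 1.5 times without N1N2 replicate 2 (15 and 19) or 4 (15 and 18) or N1N2 plus Lrp6 replicate 4 (18 and 21). The count in N1N2 plus Lrp6 against control crypts, 1 higher and 0 lower, was 2 higher with flagged spots kept or included, 0 with equal spread, without the 4 arrays or with the covariate, 28 higher and 17 lower with a random slide block (where the correlation within slides was estimated at -0.18), and 2 and 2 with array weights. Leaving out 1 array gave 1 to 2 higher and 0 to 1 lower.

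With the replicate number as a block, the counts were 24 higher and 10 lower in N1N2 against control crypts, 25 and 28 in N1N2 plus Lrp6 against N1N2 crypts, and 1 and 0 in N1N2 plus Lrp6 against control crypts. Among named RNAs and genes the sign turned for 2010204K13Rik, at 0.20 with equal spread in N1N2 against control crypts. Of all 62 noncoding probes called in N1N2 plus Lrp6 against N1N2 crypts, 61 kept their sign with median centring and 61 without the 4 arrays. Of 26 named values called in N1N2 against control crypts, equal spread kept 7 and the fixed slide block 2. Of 24 called in N1N2 plus Lrp6 against N1N2 crypts, equal spread kept 4. The cause was not tested for any of these. A fixed slide block could not be fitted for the N1N2 plus Lrp6 comparisons. Dim probes limit the noncoding set, since 322 of 491 were above background on all arrays.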
